A study of Mus musculus with 6 samples.

Results

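Ephrins and semaphorins are contact and diffusible cues that steer cells and growth cones, and their levels were compared between mouse embryos cultured in narrow and in wide cavities. The set was defined by gene symbol, and it was chosen with earlier results of these data known. It took the Eph receptors (Epha and Ephb), the ephrins (Efna and Efnb), the semaphorins (Sema), the plexins (Plxna to Plxnd) and both neuropilins (Nrp1 and Nrp2). Of 19938 genes with an array feature of their own, 52 met the rule, and Ephb2 is not analysed here. They were 13 Eph receptors, 8 ephrins, 20 semaphorins, 9 plexins and 2 neuropilins.

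The narrow group was embryos of the outbred CD1 strain collected at embryonic day 5.0 and cultured for 8 hours in cavities of 90 µm diameter. The wide group was the same strain, age and culture time in cavities of 180 µm. Each group had 3 samples, numbered 1 to 3 in the titles, and each sample was the RNA of 30 pooled whole embryos on 1 Affymetrix Mouse Gene ST array. The labels give no genetic change or added agent, the design text calls the samples biological replicates, and the spread is thus between pools and not between embryos. All 7 epiblast, 5 extraembryonic ectoderm and 9 visceral endoderm markers that were checked had signals above the median gene. In such pools, fewer cells of a type and less RNA per cell cannot be told apart.

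Eph receptors are tyrosine kinases that meet ephrins on a neighbouring cell, and the ephrin can signal back into its own cell, which usually pushes cells apart or keeps unlike cells from mixing. A-type ephrins hang on a lipid anchor and mostly bind EphA receptors, whereas B-type ephrins span the membrane and mostly bind EphB receptors. Semaphorins act through plexins, whose inner part acts on small GTPases and the cytoskeleton, and most secreted class 3 semaphorins need a neuropilin to reach their plexin.

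Narrow and wide pools differed little across the set. The ephrin-A genes Efna5 and Efna1 and the semaphorin gene Sema6d were higher in narrow pools by 1.17-fold, 1.13-fold and 1.14-fold, and the semaphorin gene Sema3c and the ephrin-B gene Efnb2 were higher in wide pools by 1.08-fold and 1.10-fold. These 5 had unadjusted p under 0.05 by limma, and none of the 52 passed after Benjamini-Hochberg adjustment over all genes, where each had an adjusted p of 1.00. The share was 9.62% of the 52 members, against 3.4% of all 19938 genes (1.68% higher and 1.72% lower in narrow), and 0% of all genes passed after adjustment. With variances left unequal per gene, 3 of the 52 had unadjusted p under 0.05, beside 2.39% of all genes. A replicate block, which sets each narrow pool against the wide pool of its number, gave 7 of the 52, where 7.25% of all genes did so.

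On the log2 scale the 52 differences, narrow minus wide, ran from -0.13 to 0.23, with 31 positive and 21 negative. Their median was 0.018, beside 0.0011 over all genes, and 44 of the 52 lay within 0.1 of 0. The narrow pools lay wholly above the wide pools for 7 members, where 4.17% of all genes did so, and wholly below them for 1, where 3.54% did so. Standard errors of the 52 differences ran from 0.039 to 0.099 with a median of 0.053, which equals the median of all genes at this precision. An exact two-sided permutation test of a single gene over these 6 pools cannot give a p below 0.1. A gene reaches that value only where its groups do not overlap, so the 8 members that did are the same 8. Groups did not overlap in either direction for 7.7% of all genes.

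**Figure D1:**
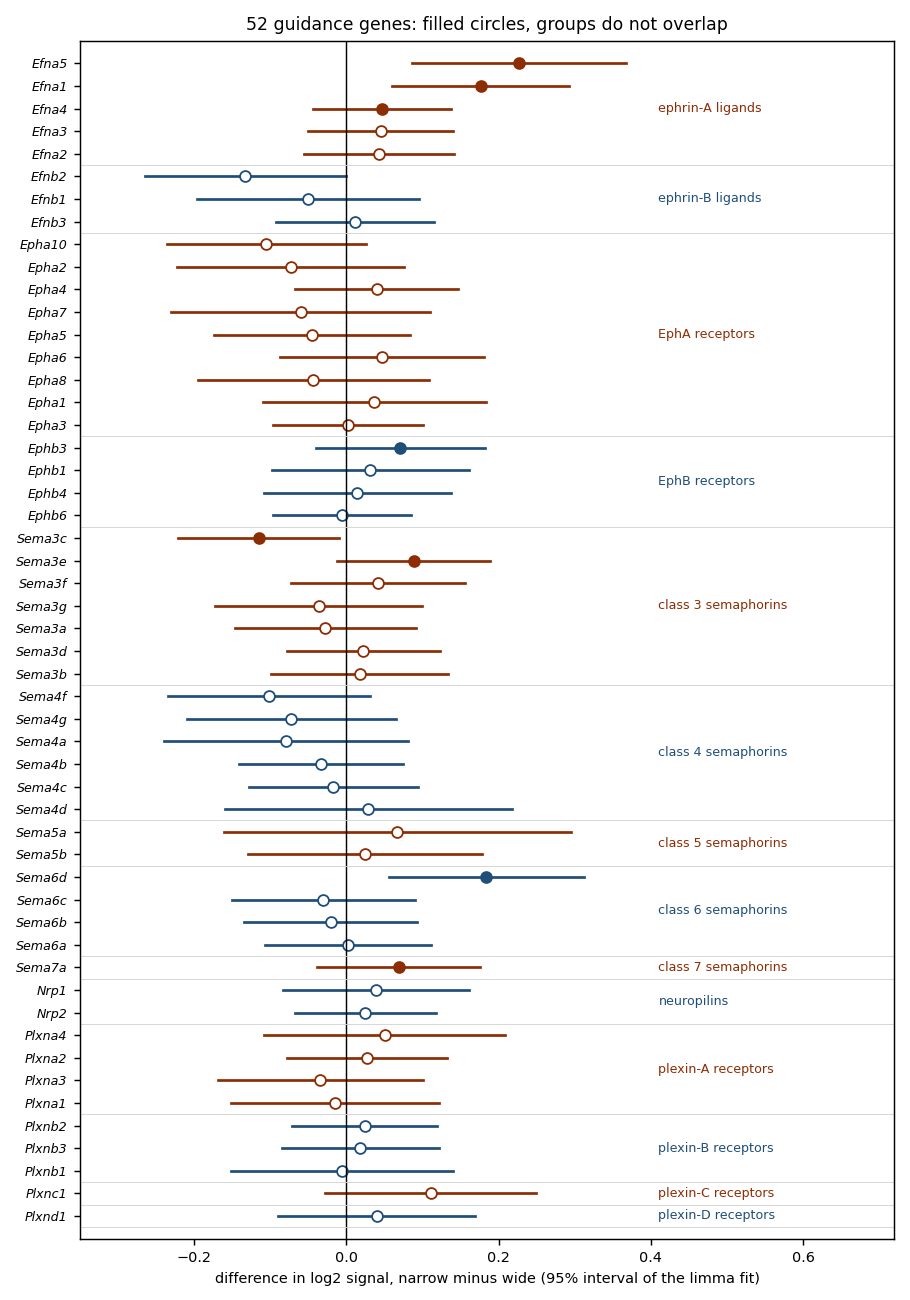
Difference in log2 signal, narrow minus wide, of the 52 guidance genes by subfamily, with the 95% interval of the limma fit. Filled circles mark the 8 genes whose groups do not overlap, and Efna5 lies farthest right at 0.23 and Efnb2 farthest left at -0.13.

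The ligands of EphA receptors were the subfamily with the most separated members. All 5 ephrin-A genes had positive differences, and narrow pools lay above wide pools for 3 of them, where 4.17% of all genes did so. This ranking of subfamilies was read from the same values and was not tested. Efna5, a lipid-anchored ephrin best known from the mapping of retinal axons, had log2 signals of 8.82, 8.71 and 8.91 in narrow pools 1, 2 and 3, against 8.60, 8.52 and 8.63 in wide pools 1, 2 and 3. The lowest narrow pool stood above the highest wide pool. The difference was 0.23 ± 0.06 (SE, 95% interval 0.09 to 0.37), with an unadjusted limma p of 0.00582. Efna1, a ligand of Epha2 that is induced in blood vessel cells by inflammatory signals, had 8.64, 8.51 and 8.61 in narrow pools, against 8.35, 8.43 and 8.44 in wide pools. Here too the groups did not overlap, and pair 2 showed the smallest gap. The difference was 0.18 ± 0.05 (95% interval 0.06 to 0.29, unadjusted p = 0.00816).

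Leaving out any 1 array kept both genes at an unadjusted p under 0.05. Without both arrays numbered 1, the difference was 0.23 for Efna5 (unadjusted p = 0.0332) and 0.12 for Efna1 (unadjusted p = 0.0674). The other ephrin-A genes had smaller differences. Efna4 had signals of 10.78 to 10.84 in narrow pools and 10.74 to 10.78 in wide pools, which did not overlap before rounding, with a difference of 0.05 ± 0.04. Efna3 differed by 0.04 ± 0.04 and Efna2 by 0.04 ± 0.04, and their groups overlapped.

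B-type ephrins did not show the same sign. Efnb2, a transmembrane ephrin that marks arteries and sends signals back into its own cell, had 10.50, 10.66 and 10.61 in narrow pools, against 10.64, 10.79 and 10.73 in wide pools. The groups overlapped, yet each narrow pool lay below the wide pool of its number, by 0.14, 0.13 and 0.12 in pairs 1, 2 and 3. The difference was -0.13 ± 0.06 (95% interval -0.27 to -0.0010, unadjusted p = 0.0486). With the replicate block the unadjusted limma p was 0.0079. When single arrays were left out without the block, p stayed under 0.05 only without narrow 2 or wide 1. Without narrow 1, narrow 3, wide 2 or wide 3 the p was up to 0.161. With both arrays numbered 1 left out the difference was -0.13 (unadjusted p = 0.0414). Efnb1, an X-linked ephrin known from skull and face development, had 10.05, 10.26 and 10.21 in narrow pools and 10.23, 10.16 and 10.29 in wide pools. Narrow 1 was the low pool and the groups overlapped (difference -0.05 ± 0.06). Efnb3 differed by 0.01 ± 0.04.

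The start regions of the 5 genes with unadjusted p under 0.05 are shown to set the letters of the 3 genes that were higher in narrow beside those of the 2 that were lower. Each window holds 250 bases before and 50 after the most upstream start in RefSeq, 5′ to 3′ on the gene's strand, and capitals mark the GC box GGGCGG or its reverse complement CCGCCC, the core bound by Sp1-type factors.
Efna5, GRCm38, chr17:62881268-62881567, minus strand: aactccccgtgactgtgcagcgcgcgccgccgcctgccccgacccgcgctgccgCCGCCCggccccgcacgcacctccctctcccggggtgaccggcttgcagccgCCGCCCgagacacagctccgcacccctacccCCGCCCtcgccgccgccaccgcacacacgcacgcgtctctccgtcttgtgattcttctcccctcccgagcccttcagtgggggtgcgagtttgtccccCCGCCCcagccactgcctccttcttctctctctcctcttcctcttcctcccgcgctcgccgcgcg
Efna1, GRCm38, chr3:89280902-89281201, minus strand: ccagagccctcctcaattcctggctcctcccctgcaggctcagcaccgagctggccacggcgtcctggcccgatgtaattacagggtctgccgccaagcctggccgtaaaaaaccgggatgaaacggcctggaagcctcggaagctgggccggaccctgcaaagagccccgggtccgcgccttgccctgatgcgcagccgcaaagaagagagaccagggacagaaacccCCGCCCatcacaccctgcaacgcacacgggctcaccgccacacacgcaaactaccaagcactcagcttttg
Sema6d, GRCm38, chr2:124089719-124090018, plus strand: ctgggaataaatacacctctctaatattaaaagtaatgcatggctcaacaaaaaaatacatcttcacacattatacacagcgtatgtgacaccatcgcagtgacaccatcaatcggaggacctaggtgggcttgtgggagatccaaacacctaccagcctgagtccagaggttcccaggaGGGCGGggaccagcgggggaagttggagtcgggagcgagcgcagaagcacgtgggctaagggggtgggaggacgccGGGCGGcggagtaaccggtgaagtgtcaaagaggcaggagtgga
Sema3c, GRCm38, chr5:17574566-17574865, plus strand: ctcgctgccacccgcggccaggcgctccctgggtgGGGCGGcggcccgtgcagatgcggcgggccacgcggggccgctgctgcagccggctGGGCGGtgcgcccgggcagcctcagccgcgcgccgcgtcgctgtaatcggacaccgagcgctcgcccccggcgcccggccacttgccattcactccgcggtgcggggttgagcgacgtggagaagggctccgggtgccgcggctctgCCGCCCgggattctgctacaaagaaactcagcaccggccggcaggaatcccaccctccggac
Efnb2, GRCm38, chr8:8661193-8661492, minus strand: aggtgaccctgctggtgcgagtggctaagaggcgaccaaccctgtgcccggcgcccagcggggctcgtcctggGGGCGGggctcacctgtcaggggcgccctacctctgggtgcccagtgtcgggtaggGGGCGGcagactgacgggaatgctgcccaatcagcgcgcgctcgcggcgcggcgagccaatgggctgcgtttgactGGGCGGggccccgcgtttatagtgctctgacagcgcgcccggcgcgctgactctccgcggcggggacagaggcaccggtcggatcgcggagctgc

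All 5 windows held a GC box, with 4 in Efna5, 1 in Efna1, 2 in Sema6d, 3 in Sema3c and 3 in Efnb2. Of 46 members with a window, 78.3% held it, as did 49.9% of the 15614 tested genes with one. Members had a median of 21.5 CpG sites per window, beside 15 for tested genes. The TATA box TATAAA, searched on both strands as were all motifs, was in 1 of the 46 member windows, that of Efnb2, and in 12.1% of tested genes. The CCAAT box CCAAT (32.6% of members, 38.4% of tested genes) and the TEAD element GGAATG (13.0% and 13.1%) were also found in Efnb2 and in none of the other 4 windows. Each motif was counted by itself, also where matches of 2 motifs could share bases, and a match describes the letters only.

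The Eph receptors lay near 0. None of the 13 had an unadjusted p under 0.05, 7 differences were positive and 6 negative, and their median was 0.0020. Epha10, a receptor whose kinase domain lacks catalytic residues, had 7.52, 7.62 and 7.43 in narrow pools, against 7.59, 7.62 and 7.68 in wide pools. The gap came mainly from pair 3, and the difference was -0.11 ± 0.06 (95% interval -0.24 to 0.03). A further feature of Epha10 gave -0.06 ± 0.07. Epha2, the receptor of Efna1 in many epithelia, had 10.46, 10.63 and 10.60 in narrow pools, against 10.53, 10.72 and 10.66 in wide pools. Each narrow pool was lower than the wide pool of its number while the groups overlapped, and the difference was -0.07 ± 0.06 (95% interval -0.22 to 0.08).

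The remaining EphA genes, Epha1, Epha3, Epha4, Epha5, Epha6, Epha7 and Epha8, lay between -0.06 and 0.05, all with overlapping groups. Epha4, which binds ephrins of both types, differed by 0.04 ± 0.05, and Epha1, an early epithelial family member, by 0.04 ± 0.06. Epha3, Epha5 and Epha6 had dim signals of 5.73 to 6.16, a range in which a dim gene cannot be told from an absent one, as array background was not measured.

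Of the EphB receptors, Ephb3, which keeps cell types apart in the gut lining, had 10.14, 10.27 and 10.14 in narrow pools, against 10.11, 10.12 and 10.12 in wide pools. The groups did not overlap, with narrow 2 well above the rest and the wide pools nearly equal (difference 0.07 ± 0.05, 95% interval -0.04 to 0.18). Ephb1, a receptor of midline axon crossing, had 7.91, 7.93 and 7.98 in narrow pools, against 7.92, 7.81 and 8.00 in wide pools, and the groups overlapped widely. Its difference was 0.03 ± 0.06, and another feature of the gene gave -0.01 ± 0.04. Ephb4, the venous receptor of Efnb2, differed by 0.01 ± 0.05 and the kinase-dead Ephb6 by -0.01 ± 0.04.

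Semaphorin genes split evenly, with 10 of 20 positive. An unadjusted p under 0.05 was found for 2 of the 20, 1 in each direction, beside 1.68% of all genes higher and 1.72% lower in narrow. Among the secreted class 3 genes, Sema3c, a ligand needed to divide the heart's outflow tract, had 6.28, 6.34 and 6.40 in narrow pools, against 6.45, 6.42 and 6.49 in wide pools. All narrow pools were below all wide pools, on a dim feature (difference -0.12 ± 0.05, 95% interval -0.22 to -0.01, unadjusted p = 0.0364). That p was kept without narrow 3 or wide 2 and was up to 0.117 without narrow 1, narrow 2, wide 1 or wide 3. Without both arrays numbered 1 the difference was -0.09 (unadjusted p = 0.137). Sema3e, which can bind plexin-D1 without a neuropilin, had 10.17, 10.25 and 10.18 in narrow pools, against 10.08, 10.11 and 10.15 in wide pools. The groups did not overlap, with a difference of 0.09 ± 0.04 (95% interval -0.01 to 0.19). Sema3a, Sema3b, Sema3d, Sema3f and Sema3g lay between -0.04 and 0.04, with overlapping groups.

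**Figure D2:**
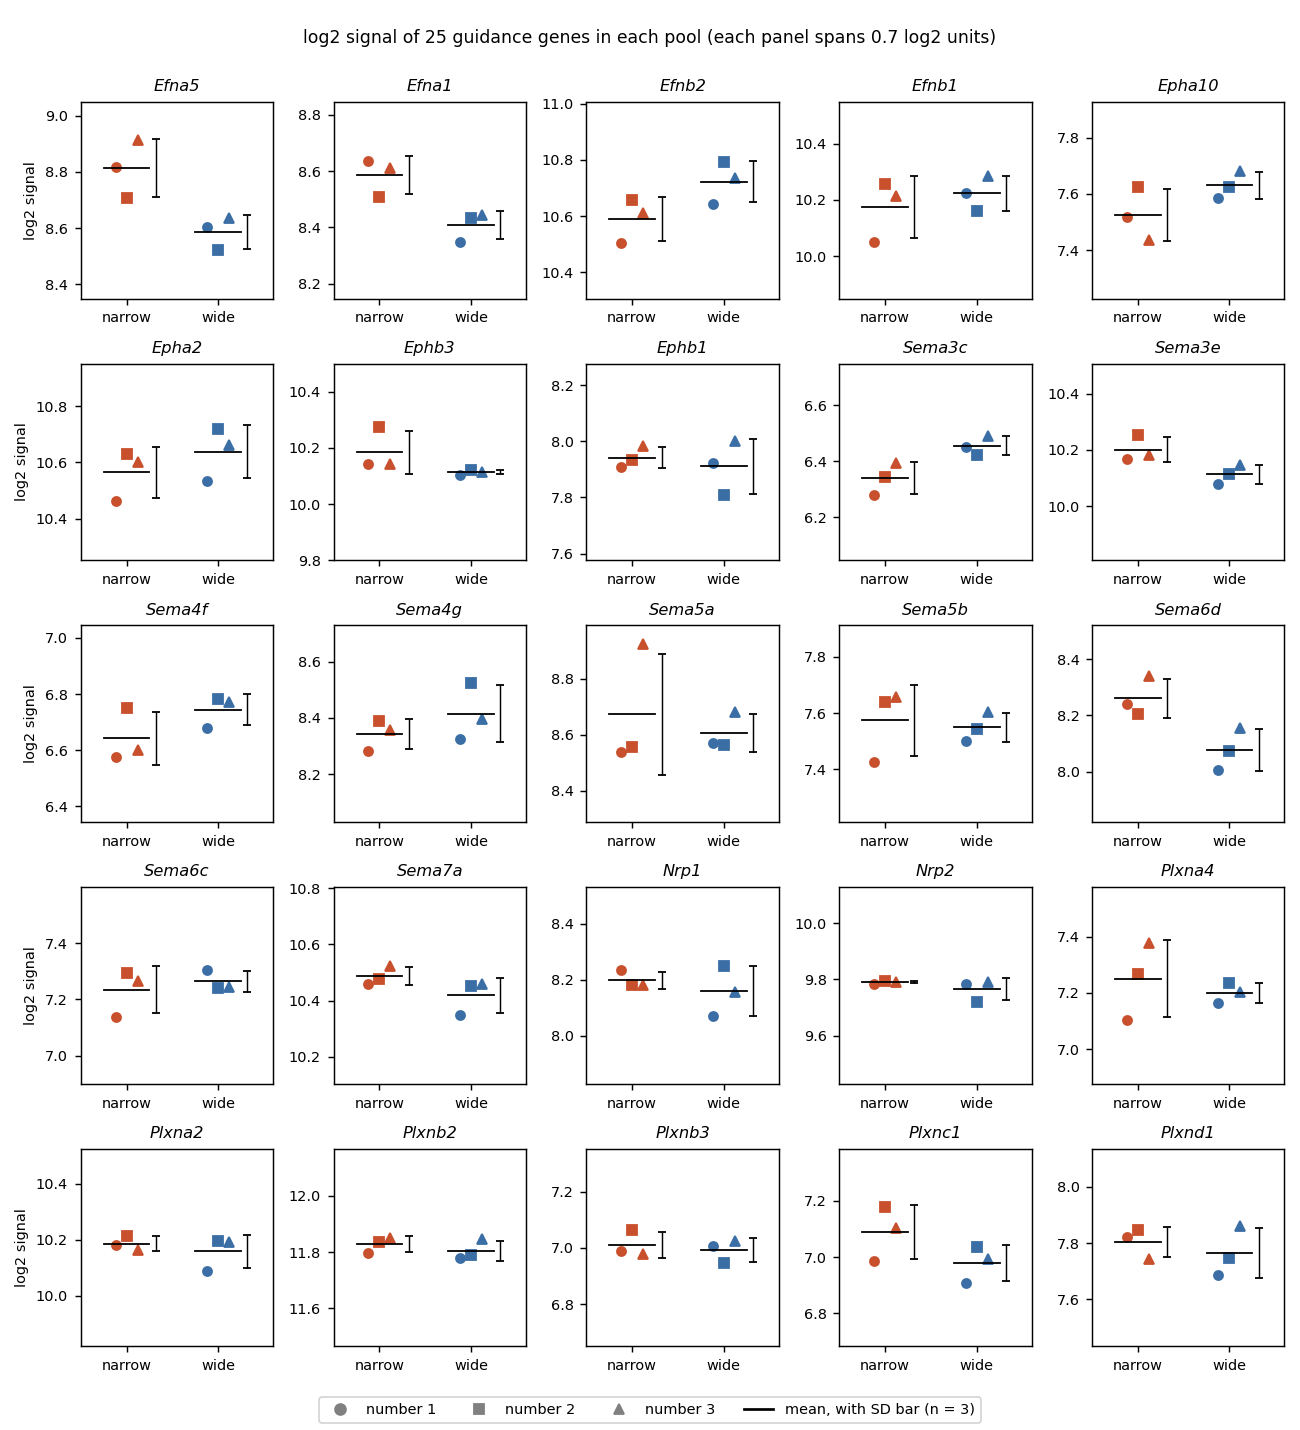
log2 signal of 25 guidance genes in each narrow (left) and wide (right) pool, marked by array number, with group means and SD bars, 3 pools a group. Every panel spans the same 0.7 log2 units, and Efna5, Efna1 and Sema6d show narrow pools above wide pools while most other panels overlap.

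Class 4 semaphorins span the membrane and mostly bind plexin-B receptors, and 5 of the 6 genes had negative differences. Sema4f, known from Schwann cell contact with axons, had 6.58, 6.75 and 6.60 in narrow pools, against 6.68, 6.78 and 6.77 in wide pools. The groups overlapped, but each narrow pool lay below the wide pool of its number (difference -0.10 ± 0.06, unadjusted p = 0.116, and 0.0487 with the replicate block). Sema4g, a less studied member, had 8.28, 8.39 and 8.36 in narrow pools, against 8.33, 8.52 and 8.40 in wide pools. It too was lower in narrow in every pair, with overlapping groups and a difference of -0.07 ± 0.06. Sema4a, a ligand of immune and retinal cells, was the third gene lower in all 3 pairs (difference -0.08 ± 0.07). Sema4b, Sema4c and Sema4d lay between -0.03 and 0.03, and a further feature of Sema4d, a ligand of plexin-B1, gave -0.0010 ± 0.09.

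Class 5 semaphorins carry thrombospondin repeats. Sema5a had 8.54, 8.55 and 8.92 in narrow pools, against 8.57, 8.56 and 8.68 in wide pools. Narrow 3 alone stood high, and the residual SD of 0.16 was the largest of the 52 members. Its difference was 0.07 ± 0.10. Sema5b had 7.43, 7.64 and 7.66 in narrow pools and 7.50, 7.54 and 7.60 in wide pools, which overlapped (difference 0.02 ± 0.07).

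In class 6, whose members span the membrane and bind plexin-A receptors, Sema6d stood apart from its 3 relatives in size of difference, a contrast that was not tested. Sema6d, which signals through plexin-A1 in the developing heart, had 8.24, 8.20 and 8.34 in narrow pools, against 8.01, 8.07 and 8.16 in wide pools. The groups did not overlap and the gaps in pairs 1, 2 and 3 were 0.24, 0.13 and 0.18. The difference was 0.18 ± 0.06 (95% interval 0.06 to 0.31, unadjusted p = 0.0106), and it kept a p under 0.05 without any 1 array. Without both arrays numbered 1 it was 0.16 (unadjusted p = 0.0526). Sema6c had 7.14, 7.30 and 7.27 in narrow pools, against 7.31, 7.24 and 7.24 in wide pools. Narrow 1 and wide 1 were the extremes and the groups overlapped (difference -0.03 ± 0.05). Sema6b differed by -0.02 ± 0.05 on both of its features, and Sema6a by 0.0022 ± 0.05. Sema7a, the lipid-anchored semaphorin that binds integrins and plexin-C1, had 10.46, 10.48 and 10.52 in narrow pools, against 10.35, 10.45 and 10.46 in wide pools. The groups did not overlap before rounding, with wide 1 lowest (difference 0.07 ± 0.05, 95% interval -0.04 to 0.18).

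Semaphorin receptors lay near 0 as well. None of the 11 plexin and neuropilin genes had an unadjusted p under 0.05 or groups without overlap, and 8 of 11 differences were positive. Plxnc1, the receptor of Sema7a, had 6.99, 7.18 and 7.10 in narrow pools, against 6.91, 7.04 and 6.99 in wide pools. Each narrow pool exceeded the wide pool of its number, by 0.08, 0.14 and 0.11, though the groups overlapped. The difference was 0.11 ± 0.06 (95% interval -0.03 to 0.25, unadjusted p = 0.103, and 0.0209 with the replicate block). Plxnd1, the receptor of Sema3e in vessels, had 7.82, 7.85 and 7.75 in narrow pools, against 7.69, 7.75 and 7.86 in wide pools. Pair 3 ran against the other pairs, and the difference was 0.04 ± 0.06.

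Plexin-A receptors serve class 3 and class 6 semaphorins. Plxna4 had 7.10, 7.27 and 7.38 in narrow pools, against 7.16, 7.23 and 7.20 in wide pools, and narrow pools held both the lowest and the highest value. Plxna2 had 10.18, 10.22 and 10.16 in narrow pools, against 10.09, 10.19 and 10.19 in wide pools, which overlapped. Their differences were 0.05 ± 0.07 and 0.03 ± 0.05, beside -0.03 ± 0.06 for Plxna3 and -0.01 ± 0.06 for Plxna1. For the receptors of class 4, Plxnb2 had 11.80, 11.84 and 11.85 in narrow pools, against 11.78, 11.79 and 11.85 in wide pools. Plxnb3 had 6.99, 7.06 and 6.98 in narrow pools, against 7.01, 6.94 and 7.03 in wide pools. Both differed by 0.02 ± 0.04 with overlapping groups, and Plxnb1 by -0.01 ± 0.06.

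The neuropilins, co-receptors for class 3 semaphorins and for VEGF, had intervals that held 0. Nrp1 had 8.23, 8.18 and 8.18 in narrow pools, against 8.07, 8.25 and 8.16 in wide pools, a spread set mainly by the wide pools (difference 0.04 ± 0.05, 95% interval -0.08 to 0.16). Nrp2 had 9.78, 9.79 and 9.79 in narrow pools, against 9.78, 9.72 and 9.79 in wide pools, and its narrow pools were the tightest group of any member (difference 0.02 ± 0.04, 95% interval -0.07 to 0.12).

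**Figure D3:**
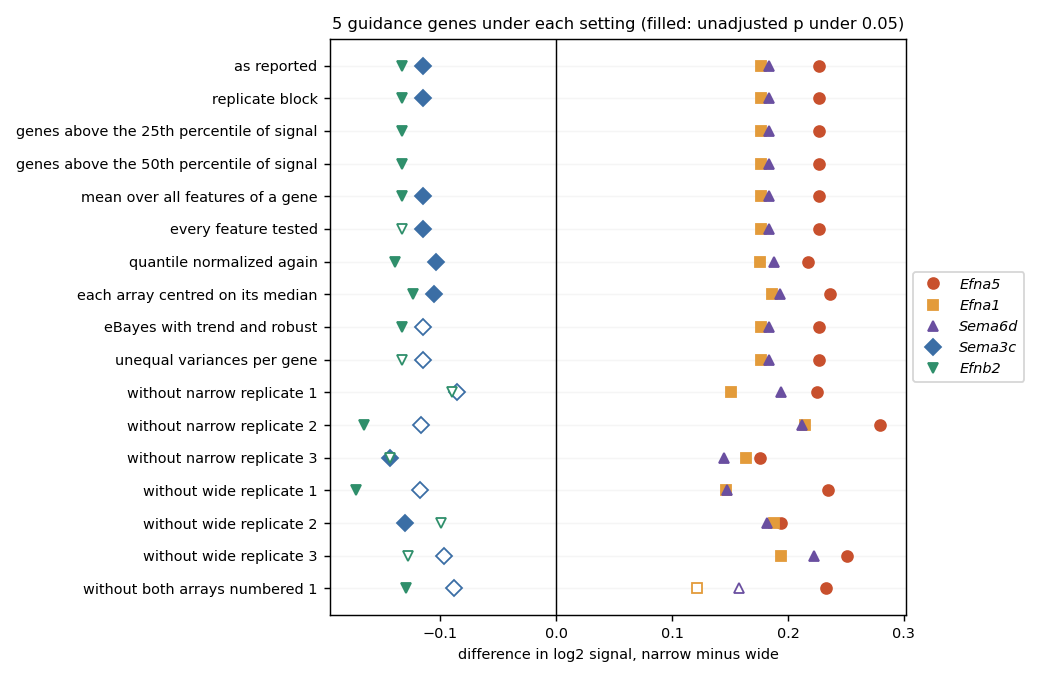
Difference in log2 signal, narrow minus wide, of the 5 genes with unadjusted p under 0.05, as reported and under each of 16 other settings, filled where the unadjusted p stayed under 0.05. Efna5 stays filled in every row shown, and none of the 5 crosses 0.

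Downstream of these receptors, 43 transducer genes were listed and measured. None passed after adjustment or had an unadjusted p under 0.05, 29 differences were positive, and the median was 0.017. The smallest p-values were those of Met, the growth factor receptor that pairs with plexin-B (0.14 ± 0.06, unadjusted p = 0.0511), and the kinase gene Fes (0.12 ± 0.06). Next were Rgs3, which links ephrin-B to G proteins (-0.09 ± 0.04), and Mical2, an enzyme that oxidises actin (0.11 ± 0.06). Met was the 1 transducer whose narrow pools all lay above the wide pools, and Farp2 (-0.07 ± 0.05) the 1 whose narrow pools all lay below them, where 4.17% and 3.54% of all genes did so. With the replicate block, 2 of the 43 had unadjusted p under 0.05, Met (unadjusted p = 0.0151) and Mical2 (unadjusted p = 0.0434), beside 7.25% of all genes.

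Of 24 measured genes of other guidance families (Slit, Robo, netrin, Unc5, Rgm and Flrt genes with Dcc, Neo1, Dscam and Draxin), none passed after adjustment. Of these, 2 (8.33%) had an unadjusted p under 0.05, both higher in narrow, beside 3.4% of all genes in either direction. They were Rgmb (0.12 ± 0.05, unadjusted p = 0.0304) and Rgma (0.11 ± 0.05, unadjusted p = 0.0405), which encode lipid-anchored ligands of neogenin that also act as BMP co-receptors. Flrt2, a ligand of Unc5 receptors, differed by 0.11 ± 0.05 and its relative Flrt1 by -0.10 ± 0.05. The median of these 24 was 0.019. With the replicate block 4 of them, Rgmb, Rgma, Flrt2 and Flrt1, had unadjusted p under 0.05, beside 7.25% of all genes.

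Markers of some tissues differed between the same groups at unadjusted p under 0.05 by limma. Of all genes 3.4% did so (1.68% higher and 1.72% lower in narrow). None of the markers passed after adjustment over all genes. Of 4 distal visceral endoderm markers, Cer1 (0.70 ± 0.13) and Lefty1 (0.31 ± 0.05) were higher in narrow pools at unadjusted p under 0.05, whereas Hesx1 (-0.09 ± 0.17) and Hhex (0.03 ± 0.07) had larger p. The list's mean signal per pool was 8.31 to 8.56 in narrow, against 8.15 to 8.25 in wide. Of 5 extraembryonic ectoderm markers, Esrrb (-0.22 ± 0.04) and Bmp4 (-0.21 ± 0.08) were lower, and Cdx2 (-0.10 ± 0.06) was lower by less. Eomes (-0.0007 ± 0.04) lay near 0, and Elf5 (0.04 ± 0.04) was higher in narrow in every pair. The markers thus did not all move the same way, while the list's mean was 11.27 to 11.37 in narrow, against 11.38 to 11.46 in wide. Of 9 visceral endoderm markers 1, Trf, was higher at unadjusted p under 0.05 (0.18 ± 0.05), while 5 had negative differences, among them Hnf4a (-0.06 ± 0.04), and the median was -0.0023. Their list mean was 11.89 to 11.90 in narrow and 11.84 to 11.89 in wide. For 7 epiblast markers the mean was 11.27 to 11.35 in narrow and 11.33 to 11.37 in wide, and none had an unadjusted p under 0.05, whereas Nanog (-0.16 ± 0.09) did with the replicate block (unadjusted p = 0.0160). With that block Cdx2, lower in narrow, did so as well, beside 7.25% of all genes. So did 3 markers that were higher in narrow, Rbp4 (0.18 ± 0.09), Thbd (0.13 ± 0.06) and Neurod1 (0.21 ± 0.11). The 4 neuron markers had means per pool of 6.92 to 7.04 in narrow, a range that held all wide means (lowest 6.93). All 4 markers were below the median gene. The 4 decidua and stroma markers had means of 7.66 to 7.70 in narrow and 7.65 to 7.73 in wide. The 4 measured markers of blood and endothelium had 8.62 to 8.72 in narrow and 8.53 to 8.99 in wide, and the 3 of parietal endoderm 11.71 to 11.75 in narrow and 11.65 to 11.72 in wide. Hand1, the 1 measured of 3 trophoblast giant cell markers, differed by 0.04 ± 0.05. The part of any of these tissues in the differences of the guidance genes was not tested.

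Some members followed the array number, but the share that did so in either direction was not above that of all genes. The share with both arrays numbered 1 below the rest was higher than that of all genes, and the share above was lower. Neither gap was tested. Both arrays numbered 1 lay below the other 4 for 13 of the 52 members, where 19.9% of all genes did so, and above them for 1, where 12.2% did so, which makes 14 of 52 apart in either direction beside 32.1% of all genes. The widest gap was that of Sema4d, with 9.96 in narrow 1 and 10.01 in wide 1, against 10.15 to 10.24 in the other 4 pools. Epha2, Epha1, Epha7 and Plxna1 were also low in both, and Sema4c was the 1 gene high in both. Genes whose groups do not overlap cannot have both arrays numbered 1 apart on the same side. Efna5, Efna1, Sema6d and Sema3c could thus not be among the 14. Efnb2, whose groups overlapped, was not among them, with -0.12 for the arrays numbered 1 minus the other 4. What the array number stands for is not given in the labels, and its part in these differences was not tested.

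**Figure D4:**
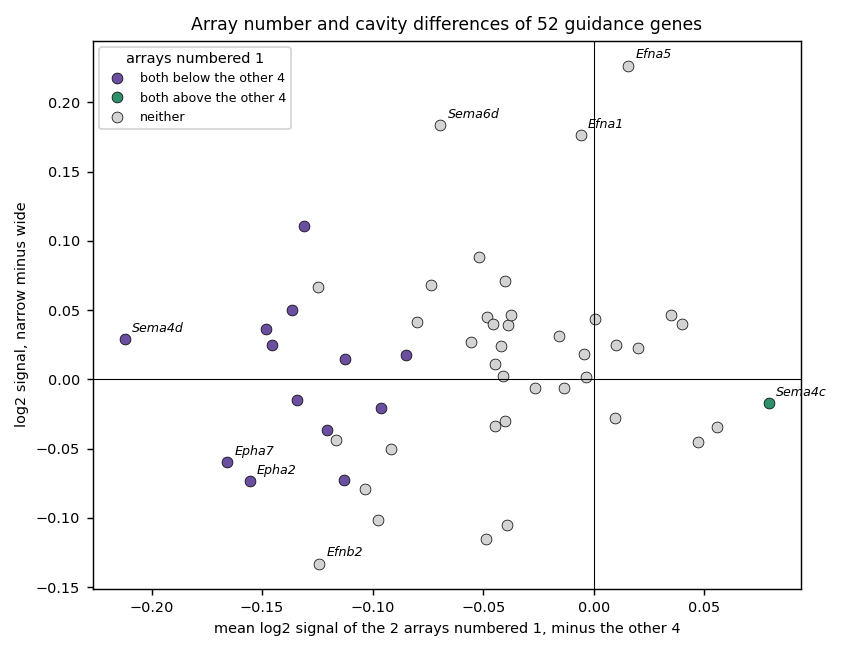
For the 52 guidance genes, the mean log2 signal of the 2 arrays numbered 1 minus that of the other 4 (horizontal) and the difference narrow minus wide (vertical). The 13 genes with both arrays numbered 1 below the other 4 lie at the left, and Efna5 and Efna1 lie near 0 on the horizontal axis.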

How the data were processed

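The authors deposited a log2 signal for each feature in each pool, and the scale was read from the range, 4.33 to 14.31. How they corrected background, summarized probes and normalized is not given in the sources used. Array medians were close, 7.62 to 7.67, and values were used without further scaling. If arrays were scaled to each other before deposit, a change in total RNA would be lost. The 6 arrays set the precision.

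Features were named through the platform annotation: 21789 of 28853 named 1 gene, 1621 several and 5443 none. The Entrez identifiers of 21698 were in RefSeq, which changed 0 symbols. Each gene was represented by its feature with the highest mean. Narrow minus wide was tested over 19938 genes with limma 3.58.1 in R 4.3.3 (lmFit, eBayes, two-sided, no covariate), Benjamini-Hochberg adjusted, threshold 0.05, and the test was tried on simulated data. Differences carry the SE of the fit.

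Members, lists and the rule for detail were chosen with earlier results of these data known. Detail was given to the up to 2 genes of smallest p in each of 14 subfamilies, and to up to 4 in each list of partners. Deviations from group means correlated at 0.516, 0.176 and 0.272 between arrays of the same number, all over 0.1, so the numbers were taken to pair pools, although narrow 2 and wide 3 correlated at 0.178. Alternatives were a replicate block, filters on dim genes, other feature rules, rescaling, other variance models and left-out arrays. Background correction and slide could not be varied from these values. Promoter windows are RefSeq's on GRCm38.p6, and no protein sequences were used.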

Additional observations from a re-analysis of the deposited data

How the results depend on the processing

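Under each of 16 alternatives 0 genes passed after adjustment, by limma or by the per-gene test, and the smallest adjusted p under the replicate block was 0.0838. The count of 5 members with unadjusted p under 0.05 became 3 with unequal variances (Efna5, Efna1 and Sema6d), beside 2.39% of all genes. It became 3 without both arrays numbered 1 (Efna5, Efnb2 and Plxnc1, which is not among the 5). Over single left-out arrays it was 3 to 6, the low being without wide 3. The counts with arrays left out are not set beside a share of all genes, so no excess is read from them. Among all genes the 678 became 1446 with the replicate block, and the members numbered 7 under it, with Plxnc1 and Sema4f added. For the 5, the unadjusted limma p with the block was 0.00098 for Efna5, 0.0031 for Sema6d, 0.0079 for Efnb2, 0.0118 for Efna1 and 0.0220 for Sema3c. The block changed no adjusted call. The members' median of 0.018 ran from -0.0055 to 0.038 over left-out arrays, and was 0.028 with each array centred on its median, where the median of all genes was 0.011. The genes given in detail, 25 or those of them still tested, kept their sign except where arrays were left out, with 20 of 25 doing so without both arrays numbered 1 and 22 to 25 without 1 array. Above the 50th percentile of signal 15 of them were left to test. Of 804 values of the 52 members, 741 kept their sign and 63 did not, 0 of those among the 5. The replicate block, the dim-gene filters, the other variance models and testing every feature leave each difference as it was. No sign could change there. Single left-out arrays changed 45 of the 52 differences by a factor above 1.5, none of these being Efna5, Efna1, Sema6d, Sema3c or Efnb2. The 5 were picked from these values by small p, so their stability follows in part from that choice. The causes were not tested. Background on the arrays was not measured, which limits dim genes such as Sema3c.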
